A study of Mus musculus with 24 samples.

Results

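The cytosolic ribosomal protein genes encode the proteins that, with the ribosomal RNAs, make up the small and the large subunit of the ribosome in the cytosol. Members were all genes whose symbol matched the pattern of Rpl or Rps followed by a number, with an optional letter and further digits, plus Rplp0, Rplp1, Rplp2 and Rpsa, leaving out names marked as pseudogenes by "-ps". This rule used symbols only and found 88 of 40481 genes, the same 88 in the ileum and the liver: 31 genes of the small subunit, 46 of the large subunit, and 11 paralogs or gene copies. All 88 were found by gene ID in the GENCODE annotation of GRCm38, 83 of them as protein coding and 5 copies (Rpl6l, Rps12l1, Rps3a2, Rps3a3 and Rps4l) as processed pseudogenes. Levels are CPM, reads of a gene scaled to the assigned reads of its library, and 85 members had at least 0.5 CPM in at least 3 libraries of each tissue and were tested. Rpl3l, Rpl10l and Rpl39l did not, with at most 0.53 CPM in any of the 24 libraries.

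RNA was sequenced from ileum and liver of C57BL/6 mice after resection of 75% of the intestine, in 8 groups of 3 libraries. In each tissue the groups were Abca1 fl/fl X Villin-Cre mice given GW3965 (Villin-Cre GW3965), Abca1 fl/fl X Villin-Cre mice given vehicle (Villin-Cre vehicle), Abca1 fl/fl mice given GW3965 (floxed GW3965) and Abca1 fl/fl mice given vehicle (floxed vehicle). The Villin promoter drives Cre in the intestinal epithelium, where it deletes Abca1, the transporter that moves cholesterol onto apolipoprotein A-I. Cre activity in other cells of the ileum or in the liver was not measured here. GW3965 activates the liver X receptors, nuclear receptors for oxidised cholesterol. Its oral dose was 1 mg/kg/day in 0.5% carboxymethyl cellulose, 2 times a week, in the last 5 of the 10 weeks after the operation. No group here was left unoperated or carried Villin-Cre without the floxed allele. Age and sex of the mice are not stated in the labels.

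A ribosome holds single copies of nearly all its proteins, so their genes are usually expressed in proportion to each other, at high levels in cells that grow and divide. Their transcription rises with growth signals, among them the transcription factor MYC. Their mRNAs start with a cytosine followed by a run of pyrimidines, the 5′ terminal oligopyrimidine (TOP) element, through which the kinase complex mTORC1 and the RNA-binding protein LARP1 set how much of the mRNA is translated and how stable it is. Renewing intestinal crypts and regenerating liver are textbook examples of tissues with high ribosome synthesis.

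The start sites of 6 members are shown because the results below turn on these genes: Rpl12, Rps2 and Rpl41 were among the largest falls of a comparison, Rps6 is the kinase substrate of the growth pathway, and Rpl28 and Rps27l departed from the rest. Each line gives 50 bases before and 15 bases from the RefSeq transcription start (GRCm38.p6), read 5′ to 3′, with the longest run of C and T that reaches into the first 15 transcribed bases in capitals.
Rpl12 (chr2:32961662-32961726, plus strand): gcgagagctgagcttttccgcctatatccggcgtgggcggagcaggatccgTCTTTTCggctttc
Rps2 (chr17:24720013-24720077, plus strand): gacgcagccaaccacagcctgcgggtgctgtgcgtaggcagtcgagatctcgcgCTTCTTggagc
Rpl41 (chr10:128549154-128549218, minus strand): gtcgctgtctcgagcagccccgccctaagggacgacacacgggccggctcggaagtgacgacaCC
Rps6 (chr4:86857353-86857417, minus strand): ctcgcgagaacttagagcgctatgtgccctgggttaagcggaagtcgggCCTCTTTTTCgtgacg
Rpl28 (chr7:4792915-4792979, plus strand): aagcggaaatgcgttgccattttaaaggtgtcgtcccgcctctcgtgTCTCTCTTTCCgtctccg
Rps27l (chr9:66946036-66946100, plus strand): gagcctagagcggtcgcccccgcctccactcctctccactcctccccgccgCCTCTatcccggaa
The run was long in Rps6 and Rpl28, and short in Rps27l and Rpl41. RefSeq promoter windows (250 bases before and 50 after the start) were matched for 63 of the 88 members. A gene was counted if any of its windows held the feature. A run of at least 7 pyrimidines that reached into the first 15 bases was held by 29 of these 63 members (46.03%). Of all 27025 genes with a window, 16.88% held one. The letters CCGGAAG, searched on both strands as a core that ETS-family factors can bind, stood in 26 of 63 members (41.27%), against 9.928% of all genes. TATAAA on either strand stood in 7 of 63 (11.11%), against 15.67% of all genes; as spelled, the 2 motifs do not hold one another. These matches describe the letters in the window only. The annotated start can lie some bases from the start used in these tissues, which moves a run in or out of the first 15 bases.

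Ileal libraries held 17.001 to 24.2 M assigned reads and liver libraries 26.5 to 32.3 M. Abca1 averaged 53.8 ± 0.158 CPM in Villin-Cre GW3965 ileum and 372 ± 105 CPM in floxed GW3965 ileum, and 28.3 ± 2.47 CPM in Villin-Cre vehicle ileum and 57.2 ± 2.83 CPM in floxed vehicle ileum (SD, n = 3 each), lower in Villin-Cre in both pairs. In the liver Abca1 averaged 379 ± 2.71 CPM in Villin-Cre GW3965 and 470 ± 8.03 CPM in floxed GW3965. Under vehicle it averaged 225 ± 0.250 CPM in Villin-Cre and 335 ± 7.81 CPM in floxed liver (SD, n = 3 each). Both liver pairs were thus lower in Villin-Cre too, without overlap, and the cause was not tested. The tissue labels matched their markers. Fabp6, the ileal bile acid binding protein, averaged 1339 CPM in floxed vehicle ileum and was listed at 0 in floxed vehicle liver. Alb, the albumin gene, averaged 22.3 CPM in floxed vehicle ileum and 57418 CPM in floxed vehicle liver. Libraries of a group were very alike: in each tissue 10 of 12 within-group pairs differed by only 2.59 to 3.96 times the Poisson variance of their reads. The floxed GW3965 replicate 3 of the ileum (7.19 and 7.52 times) and the floxed GW3965 replicate 1 of the liver (8.70 and 8.89 times) stood apart. Pairs from different groups differed by 6.63 to 43.4 times. No label says which libraries came from separate animals, so p-values below measure the spread between these libraries, which may be technical. For that reason the counts of members in comparisons within a tissue are also given with the close libraries averaged. That fit leaves 1 residual degree of freedom. Averaging turned every group but floxed GW3965 into a single value, so the spread in that fit came from the floxed GW3965 libraries alone. Comparisons of the other groups hold no spread of their own there. In several comparisons that fit calls few or no genes of any kind. Where no member passed it, that is therefore no result about the family. Comparisons between tissues and the counts of other gene lists were not refitted in this way.

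Ribosomal protein transcripts took a smaller share of the reads in Villin-Cre than in floxed ileum, and a larger share in Villin-Cre than in floxed liver; under GW3965 the share was smaller in both tissues and both genotypes. In the ileum, the 88 genes together took 0.440, 0.440 and 0.439% of the assigned reads in the Villin-Cre GW3965 libraries, 0.645, 0.643 and 0.664% in Villin-Cre vehicle, 0.931, 0.960 and 0.810% in floxed GW3965 and 1.14, 1.15 and 1.13% in floxed vehicle. No ileal group overlapped another, and the order ran from Villin-Cre GW3965, the lowest, to floxed vehicle, the highest. In the liver they took 1.07, 1.05 and 1.03% in Villin-Cre GW3965, 1.27, 1.27 and 1.28% in Villin-Cre vehicle, 0.616, 0.663 and 0.660% in floxed GW3965 and 0.915, 0.901 and 0.915% in floxed vehicle. No liver group overlapped another either, but there the Villin-Cre vehicle libraries were highest and the floxed GW3965 libraries lowest. In bulk tissue, fewer cells of a type and less RNA per cell cannot be told apart. Gm26917, a predicted gene that held a large share of the ileal reads, took 4.04% of them in Villin-Cre GW3965, 11.7% in Villin-Cre vehicle, 7.06% in floxed GW3965 and 10.95% in floxed vehicle ileum. With Gm26917 and the mitochondrially encoded genes out of the total, the members' share averaged 0.474% in Villin-Cre GW3965, 0.760% in Villin-Cre vehicle, 0.998% in floxed GW3965 and 1.34% in floxed vehicle ileum, in the same order as before.

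**Figure D1:**
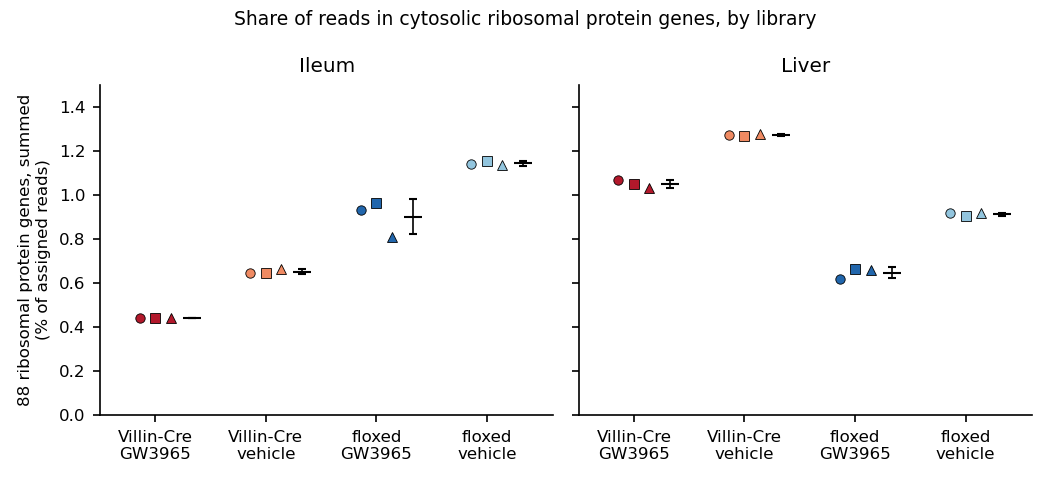
Summed share of the 88 ribosomal protein genes in the assigned reads (%, y axis) in each library, by group (x axis), for ileum (left) and liver (right); circles, squares and triangles are replicates 1, 2 and 3, and the bar beside them is the mean ± SD (n = 3). In the ileum the groups run from 0.440% in Villin-Cre GW3965 up to 1.14% in floxed vehicle, and in the liver Villin-Cre vehicle is highest at 1.27%.

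Merged exons join all annotated exons of a gene, so this length can exceed that of the mRNA made. It was 4043 bases for Rpl18 and 1022 for Rpl19, and levels and ranks per kilobase depend on it. Per kilobase of merged exon, the members spanned a wide range of levels in floxed vehicle ileum, with a median of 54.8 CPM per kb. The highest were the stalk proteins Rplp1 at 587 ± 42.1 CPM per kb and Rplp0 at 338 ± 9.35 CPM per kb (SD, n = 3), followed by Rps15 at 234 ± 4.78 and Rps2 at 226 ± 7.44 CPM per kb, which did not differ from each other beyond their spread. In floxed vehicle liver the median was 47.6 CPM per kb, and the highest were Rplp1 at 479.7 ± 17.1, Rpl36 at 229 ± 8.13, Rplp0 at 203 ± 3.96 and Rps15 at 194 ± 9.24 CPM per kb; Rplp0 and Rps15 differed by less than the SD of Rps15. Lowest in both tissues were Rpl10l, Rpl39l and Rpl3l, paralogs known from testis and muscle, which were at or near 0. Rpl24 followed, with only 0.700 ± 0.177 CPM per kb in the ileum and 0.456 ± 0.0392 CPM per kb in the liver. In the annotation the exons of Rpl24 overlap those of Gm28037 on the same strand, so its level is uncertain. In all, 39 members share exon bases with another annotated gene. No source used here names the strand setting of the counting, so reads of such pairs cannot be told apart. Summed over genes, small-subunit CPM divided by large-subunit CPM was 0.675 ± 0.0072 in Villin-Cre GW3965, 0.731 ± 0.0092 in Villin-Cre vehicle, 0.727 ± 0.0052 in floxed GW3965 and 0.732 ± 0.0065 in floxed vehicle ileum (SD, n = 3 each). The first of these stood below the other 3 by more than the spread. In the liver the ratio averaged 0.682 ± 0.0034 in Villin-Cre GW3965, 0.679 ± 0.0035 in Villin-Cre vehicle, 0.660 ± 0.0085 in floxed GW3965 and 0.662 ± 0.0083 in floxed vehicle (SD, n = 3 each), and all 6 Villin-Cre libraries lay above all 6 floxed ones.

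In the ileum without drug, nearly the whole family was lower in Villin-Cre than in floxed mice. Of 85 tested members, 83 fell and 0 rose at an adjusted p under 0.05, where 30.7% of all 18656 genes tested fell and 9.61% rose. The member median was -0.81 on the log2 scale, against -0.18 for all genes. Between the groups, 83 members lay wholly below and 0 wholly above, where 38.3% and 14.2% of all genes did. All 31 small-subunit genes and 45 of 46 large-subunit genes fell, with medians of -0.82 and -0.81. Rpl36a, a large-subunit protein, had 20.5, 24.3 and 20.7 CPM in Villin-Cre vehicle and 46.9, 45.4 and 45.7 CPM in floxed vehicle ileum (log2 fold change -1.06 ± 0.099 SE, adjusted p = 3.74e-07). Rpl27a, of the large subunit as well, had 71.1, 65.1 and 70.4 CPM in Villin-Cre vehicle and 145, 150.3 and 145 CPM in floxed vehicle ileum (log2 fold change -1.09 ± 0.063 SE, adjusted p = 1.79e-09). In both genes the Villin-Cre libraries held about the same low level and the groups were far from overlapping. Rpsa, the small-subunit protein also known as a laminin receptor, had 180.4, 189.8 and 198 CPM in Villin-Cre vehicle and 377, 382 and 376 CPM in floxed vehicle ileum (log2 fold change -0.998 ± 0.071 SE, adjusted p = 1.78e-08). The largest fall was that of Rps3a2 (log2 fold change -1.16 ± 0.22 SE, adjusted p = 4.84e-04), a pseudogene copy of Rps3a1 whose reads cannot be told apart from its parent's with certainty. The smallest fall was that of Rps27l, with 17.01, 16.8 and 15.4 CPM in Villin-Cre vehicle and 22.4, 21.7 and 21.2 CPM in floxed vehicle ileum (log2 fold change -0.40 ± 0.085 SE, adjusted p = 0.0013), and after rescaling by the median of gene ratios it was -0.16 and not called. Rpl24 and Rps4l did not pass the test. Once close libraries were averaged, 0 members passed the adjusted limma test and 77 were lower at an unadjusted p under 0.05, where 0.0268% of all genes passed as lower and 9.87% were lower at an unadjusted p under 0.05.

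Under GW3965 the ileal difference between the genotypes had a more negative median. Here 81 of 85 members fell in Villin-Cre and 1 rose, where 38.3% of all genes fell and 13.6% rose; the member median was -1.01, against -0.24 for all genes. By library, 81 members lay wholly below and 1 wholly above, where 41.7% and 15.8% of all genes did. Rpl12, which with Rplp0 forms the base of the stalk that recruits elongation factors, had 32.9, 31.3 and 33.2 CPM in Villin-Cre GW3965 and 122, 121 and 97.4 CPM in floxed GW3965 ileum (log2 fold change -1.78 ± 0.075 SE, adjusted p = 1.73e-11). Floxed replicate 3 was the lowest of its group and still far above every Villin-Cre library. Rps19, a small-subunit protein mutated in Diamond-Blackfan anaemia in humans, had 24.4, 26.6 and 28.003 CPM in Villin-Cre GW3965 and 82.2, 83.4 and 64.7 CPM in floxed GW3965 ileum (log2 fold change -1.52 ± 0.086 SE, adjusted p = 5.07e-10). Rpl3, which lies near the peptidyl transferase centre, had 68.1, 70.1 and 70.1 CPM in Villin-Cre GW3965 and 207, 205 and 169 CPM in floxed GW3965 ileum (log2 fold change -1.47 ± 0.073 SE, adjusted p = 1.26e-10). The exception was Rps27l, with 19.9, 18.4 and 18.2 CPM in Villin-Cre GW3965 and 15.5, 15.4 and 14.9 CPM in floxed GW3965 ileum, higher in Villin-Cre (log2 fold change 0.29 ± 0.085 SE, adjusted p = 0.00813). Averaging close libraries left 57 of 85 members lower, where 4.97% of all genes were. Of the 85, 81 were lower in Villin-Cre ileum under both vehicle and GW3965, where 16.9% of all genes were. The 2 contrasts share no library, and across the 85 genes their fold changes had a Pearson correlation of 0.60, a description over genes that are not independent.

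Most of the family was lower with GW3965 in the ileum of both genotypes. In Villin-Cre ileum 73 of 85 members fell with GW3965 and 2 rose, where 31.1% of all genes fell and 21.5% rose, and the member median was -0.56 against -0.11 for all genes. There 75 members lay wholly below and 3 wholly above, where 36.2% and 25.4% of all genes did. In floxed ileum 68 fell and 1 rose, where 20.9% of all genes fell and 14.7% rose, with a member median of -0.35 against -0.077. Here 74 members lay wholly below and 1 wholly above, where 26.7% and 17.1% of all genes did. The same 65 members fell in both genotypes, where 12.4% of all genes did. Rps2, a small-subunit protein at the mRNA entry site, had 106, 101 and 105 CPM in Villin-Cre GW3965 and 240.1, 229 and 241 CPM in Villin-Cre vehicle ileum (log2 fold change -1.18 ± 0.049 SE, adjusted p = 5.45e-12). It had 274, 275 and 259.6 CPM in floxed GW3965 and 400.3, 415 and 428 CPM in floxed vehicle ileum (log2 fold change -0.62 ± 0.049 SE, adjusted p = 4.04e-08). In both genotypes every GW3965 library lay below every vehicle library. In the annotation Rps2 shares bases with Snora64 and, on the other strand, Snhg9. Rpl12 had 32.9, 31.3 and 33.2 CPM in Villin-Cre GW3965 and 80.2, 77.2 and 77.2 CPM in Villin-Cre vehicle ileum (log2 fold change -1.26 ± 0.075 SE, adjusted p = 3.98e-10); its exons overlap Snora65 and, on the other strand, Lrsam1. Rps15a, of the small subunit, had 47.97, 41.8 and 34.9 CPM in floxed GW3965 and 58.6, 65.4 and 61.6 CPM in floxed vehicle ileum (log2 fold change -0.58 ± 0.094 SE, adjusted p = 1.30e-04).

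The members that rose with GW3965 in the ileum were few. Rps4l, a processed copy of the Rps4x mRNA at chr6:148354656-148355598 (GRCm38, plus strand), had 16.6, 18.03 and 17.5 CPM in Villin-Cre GW3965 and 12.03, 11.6 and 12.1 CPM in Villin-Cre vehicle ileum (log2 fold change 0.53 ± 0.1 SE, adjusted p = 2.75e-04). It had 17.6, 16.3 and 14.5 CPM in floxed GW3965 and 11.5, 12.5 and 12.9 CPM in floxed vehicle ileum (log2 fold change 0.38 ± 0.1 SE, adjusted p = 0.00716), so it was higher with GW3965 in both genotypes while Rps4x fell in both (the floxed fall of -0.21 was -0.12 and not called without floxed GW3965 replicate 3). Rpl28, a large-subunit protein, had 123, 123 and 128 CPM in Villin-Cre GW3965 and 107, 114 and 114 CPM in Villin-Cre vehicle ileum (log2 fold change 0.16 ± 0.051 SE, adjusted p = 0.0153). That call ended without Villin-Cre vehicle replicate 1 (0.13) or Villin-Cre GW3965 replicate 3 (0.14), and with Gm26917 and the mitochondrially encoded genes out of the total, where the fold change was 0.043. The exons of Rpl28 overlap the antisense gene Ube2s. Without floxed GW3965 replicate 3, the library that stood apart, 60 members fell in floxed ileum and the median was -0.27. The share of all genes that fell in that fit is not given. Averaged over close libraries, 5 of 85 members were lower in Villin-Cre ileum by the adjusted limma test, a share near the 4.72% of all genes, and 0 in floxed ileum, against 0.225% of all genes. At an unadjusted p under 0.05 there were 45 lower members in Villin-Cre and 24 in floxed ileum, where 14.9% and 8.27% of all genes were.

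The test of the difference between the genotypes in their GW3965 change asked which members responded unequally. In the ileum 32 of 85 members had a more negative change in Villin-Cre and 2 a more positive one, where 18.4% and 14.6% of all genes did; the median difference was -0.24, against -0.035 for all genes. Rpl12 had a difference of -0.74 ± 0.11 SE on the log2 scale, Rps19 of -0.73 ± 0.12 and Rpl13 of -0.72 ± 0.088. On the other side stood Rps27l at 0.69 ± 0.12 and Rpl28 at 0.31 ± 0.072. Rps27l fell with GW3965 in floxed ileum (log2 fold change -0.50 ± 0.085 SE, adjusted p = 2.16e-04), and in Villin-Cre ileum its fold change was 0.20 ± 0.085 SE, which did not pass the test. The count of 32 was 49 without floxed GW3965 replicate 3, and 21 without floxed GW3965 replicate 1 or without replicate 2. The shares of all genes in those fits are not given, so these counts stand without a background. Averaging left 0 members past the adjusted limma test, and 1 was lower at an unadjusted p under 0.05, where 6.97% of all genes were.

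**Figure D2:**
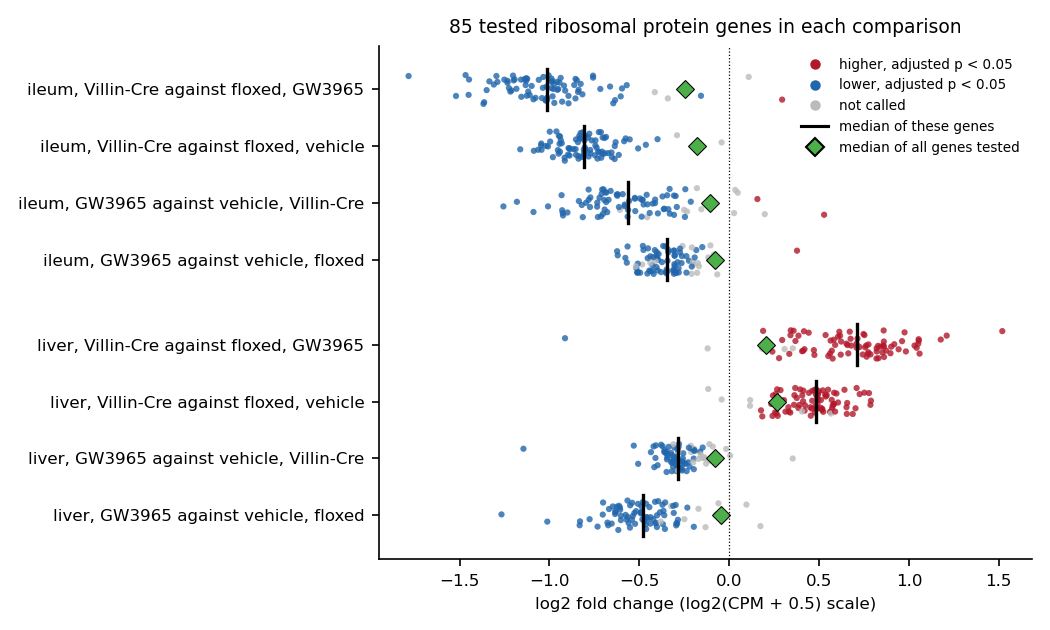
Log2 fold changes (x axis) of the 85 tested ribosomal protein genes in 8 comparisons (rows); points are genes, coloured by the limma call, vertical bars are their medians and diamonds the medians of all genes tested in that tissue. Members lie left of 0 in the 4 ileal comparisons and the 2 GW3965 comparisons of the liver, and right of 0 in both comparisons of Villin-Cre with floxed liver, with Rps4l and Rps27l among the exceptions.

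In the liver, where the Villin promoter is not known to drive Cre in hepatocytes, the genotype difference ran the other way. Without drug, 79 of 85 members rose in Villin-Cre against floxed liver and 0 fell, where 45.1% of all 17520 genes tested rose and 11.7% fell; the member median was 0.48, against 0.26 for all genes. By library, 1 member lay wholly below and 82 wholly above, where 15.3% and 52.1% of all genes did. Since so many liver genes rose, the members' count stood above a high background. After rescaling by the median of gene ratios, which set the median of all genes to 0.015, 50 members rose, 2 fell, and the member median was 0.20. The share of all genes called after this rescaling is not given, so the rescaled counts here and below stand without a background. Rpl12 had 269, 258 and 262 CPM in Villin-Cre vehicle and 148, 154 and 154 CPM in floxed vehicle liver (log2 fold change 0.79 ± 0.086 SE, adjusted p = 2.57e-06). Rps3, a small-subunit protein at the mRNA entry site that also acts in DNA repair, had 243, 234 and 228 CPM in Villin-Cre vehicle and 134, 140.2 and 136 CPM in floxed vehicle liver (log2 fold change 0.78 ± 0.052 SE, adjusted p = 1.84e-08). In both genes each Villin-Cre library lay above every floxed one by far more than the spread. Rpl36, of the large subunit, was one of the 6 that did not pass, at 94.8, 95.1 and 94.8 CPM in Villin-Cre vehicle and 91.01, 86.6 and 84.99 CPM in floxed vehicle liver (log2 fold change 0.12 ± 0.068 SE, adjusted p = 0.161). With close libraries averaged, 0 members passed the adjusted limma test and 22 were higher at an unadjusted p under 0.05, where 0.548% of all genes passed as higher and 14% were higher at an unadjusted p under 0.05.

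Under GW3965 the liver difference had a higher median, with 79 members higher and 1 lower in Villin-Cre, where 40.9% of all genes rose and 15% fell, and a member median of 0.71 against 0.21 for all genes. By library, 1 member lay wholly below and 79 wholly above, where 15.8% and 42.7% of all genes did. Rpl41, the smallest protein of the ribosome, had 176, 179.6 and 166 CPM in Villin-Cre GW3965 and 54.3, 63.5 and 63.5 CPM in floxed GW3965 liver (log2 fold change 1.52 ± 0.062 SE, adjusted p = 7.12e-11). Rps15a had 59.8, 55.9 and 56.8 CPM in Villin-Cre GW3965 and 28.3, 21.5 and 24.3 CPM in floxed GW3965 liver (log2 fold change 1.21 ± 0.082 SE, adjusted p = 1.54e-08). Rps6, the substrate of the S6 kinases that act downstream of mTORC1, had 169.7, 160.1 and 163 CPM in Villin-Cre GW3965 and 72.7, 70.4 and 74.2 CPM in floxed GW3965 liver (log2 fold change 1.18 ± 0.046 SE, adjusted p = 4.93e-11). In none of these 3 genes did Villin-Cre GW3965 and floxed GW3965 libraries overlap, and the floxed libraries with GW3965 were the lowest of the 4 liver groups in each. Rps4l was the member that went down, with 7.93, 7.58 and 5.76 CPM in Villin-Cre GW3965 and 9.64, 16.7 and 15.8 CPM in floxed GW3965 liver (log2 fold change -0.91 ± 0.17 SE, adjusted p = 3.37e-04). After averaging of close libraries, 30 of 85 members were higher, where 6.62% of all genes were. Of all 85, 78 rose in Villin-Cre liver under both treatments, where 32% of all genes did. Across genes the fold changes of the 2 contrasts, which share no library, had a Pearson correlation of 0.59.

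Ribosomal protein transcripts were lower with GW3965 in the liver of both genotypes as well. In Villin-Cre liver 64 of 85 members fell and 0 rose, where 9.03% of all genes fell and 2.85% rose; the member median was -0.28, against -0.081 for all genes. By library, 76 members lay wholly below and 0 wholly above, where 29.9% and 10% of all genes did. After rescaling by the median of gene ratios, 35 fell and the median was -0.19. In floxed liver 76 fell and 0 rose, where 19.7% of all genes fell and 10.4% rose, with a member median of -0.48 against -0.044. Here 79 members lay wholly below and 0 wholly above, where 24.6% and 14.5% of all genes did. The same 62 members fell in both genotypes, where 3.25% of all genes did. Rpl41 had the largest fall in floxed liver, with 54.3, 63.5 and 63.5 CPM in floxed GW3965 and 152, 139 and 146 CPM in floxed vehicle liver (log2 fold change -1.27 ± 0.062 SE, adjusted p = 8.39e-09). Rpl37, a zinc-binding protein of the large subunit, had 17.8, 14.5 and 16.9 CPM in floxed GW3965 and 37.3, 32.3 and 31.2 CPM in floxed vehicle liver (log2 fold change -1.01 ± 0.095 SE, adjusted p = 2.86e-06). Rps27, its zinc-binding counterpart in the small subunit, had 19.9, 19.02 and 18.5 CPM in floxed GW3965 and 30.6, 36.5 and 36.7 CPM in floxed vehicle liver (log2 fold change -0.83 ± 0.076 SE, adjusted p = 2.44e-06). All 3 had GW3965 libraries close to each other and far below vehicle.

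In Villin-Cre liver the order was another one. Rps4l had 7.93, 7.58 and 5.76 CPM in Villin-Cre GW3965 and 16.3, 15.3 and 16.9 CPM in Villin-Cre vehicle liver (log2 fold change -1.14 ± 0.17 SE, adjusted p = 7.44e-04). Rpl36 had 69.8, 68.4 and 58.96 CPM in Villin-Cre GW3965 and 94.8, 95.1 and 94.8 CPM in Villin-Cre vehicle liver (log2 fold change -0.53 ± 0.068 SE, adjusted p = 2.68e-04), and Rpl12 fell too (log2 fold change -0.51 ± 0.086 SE, adjusted p = 0.002). Across the 85 genes the GW3965 fold changes of the 2 genotypes, which share no library, had a Pearson correlation of -0.013 in the liver and of 0.53 in the ileum, given as descriptions over genes that share libraries within each contrast. Tested as a difference between the genotypes, the GW3965 change was more positive in Villin-Cre than in floxed liver for 36 of 85 members and more negative for 1, where 10.2% and 9.7% of all genes were. The differences were 1.01 ± 0.087 SE for Rpl41, 0.63 ± 0.12 for Rps15a, 0.61 ± 0.084 for the zinc-binding Rps29 and 0.52 ± 0.065 for Rps6, against -1.32 ± 0.24 for Rps4l. Without the floxed GW3965 replicate 1 that stood apart, 76 members fell with GW3965 in floxed liver, 1 (Rps4l, 0.42) rose, and 49 were more positive and 2 more negative in the test of the difference. Over the 12 fits that each left out 1 library, the more positive count ran from 26 (without Villin-Cre vehicle replicate 1) to those 49. No share of all genes is given for the fits with a library left out, so their counts stand without a background. With close libraries averaged the adjusted limma test passed 0 members in floxed liver (52 lower at an unadjusted p under 0.05), 0 in Villin-Cre liver (2 lower) and 0 for the difference (1 higher). At an unadjusted p under 0.05, 4.96% and 0.862% of all genes were lower in those fits, and 1.66% higher for the difference.

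**Figure D3:**
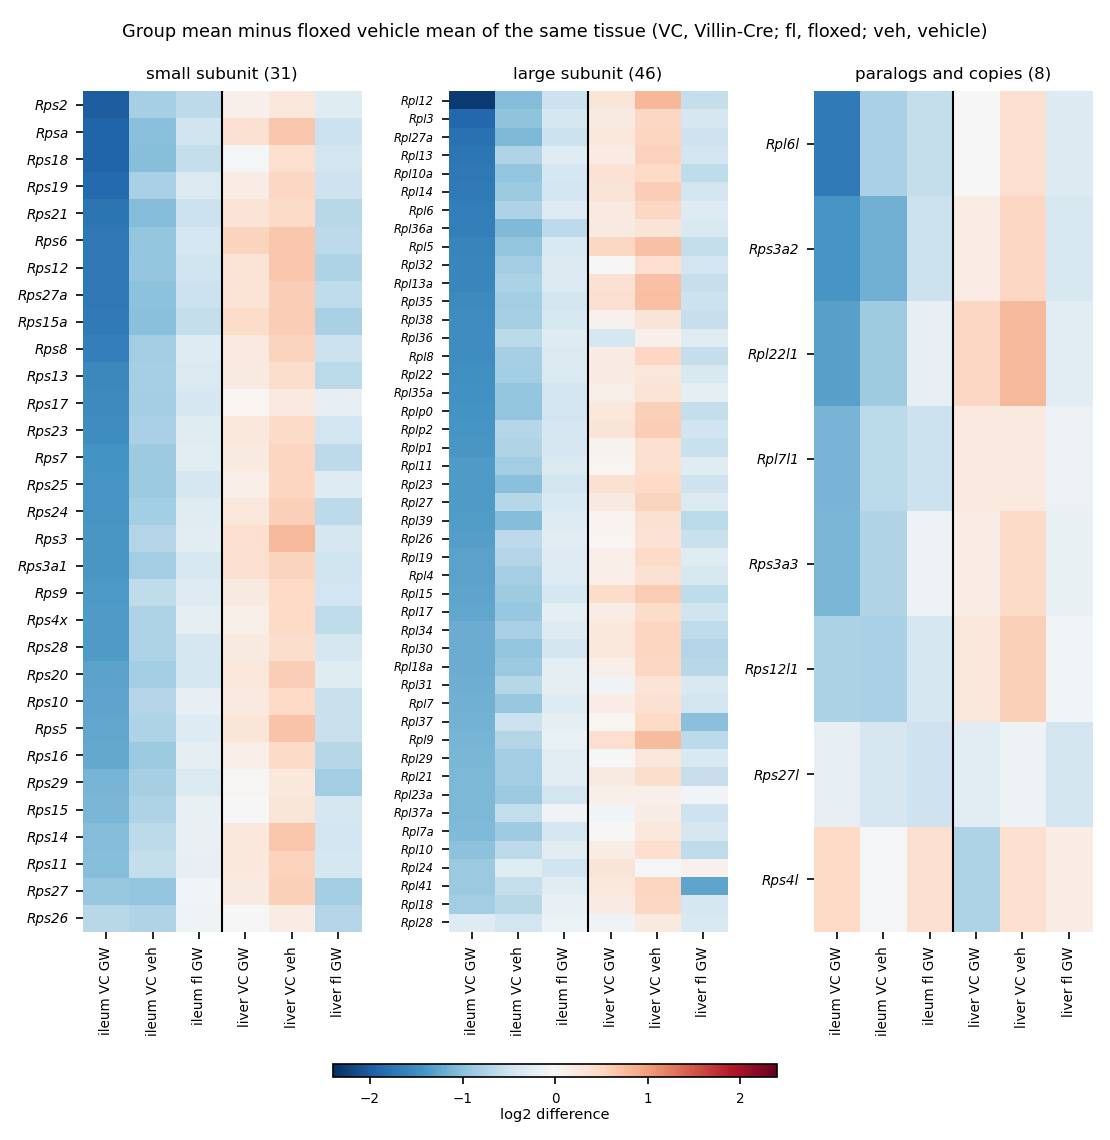
Mean log2(CPM + 0.5) of each group minus the floxed vehicle mean of the same tissue (colour, log2 units) for the 85 tested members, in 31 small-subunit genes, 46 large-subunit genes and 8 paralogs or copies, each block sorted by Villin-Cre GW3965 ileum. Nearly all rows are blue in the ileal columns and light red in Villin-Cre vehicle liver, where the member median is 0.48. Villin-Cre GW3965 liver lies nearer to floxed vehicle liver (median member log2 level per library, averaged, 6.83 against 6.66). Some members lie below floxed vehicle there, among them Rpl36, Rps27l, Rps4l and Rpl28. In the ileum Rps4l is red under GW3965, and Rps27l and Rpl28 are paler than most rows in the Villin-Cre columns.

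The opposite directions of the Villin-Cre difference in ileum and liver were compared in 1 fit over the 24 libraries, a test chosen after seeing the data. Without drug, the difference was more negative in ileum than in liver for 83 of 85 members and more positive for 0, where 44.1% and 8.19% of all 20040 genes were. Under GW3965 it was more negative for 81 and more positive for 1, where 45.4% and 11.4% of all genes were. The members that fell in Villin-Cre ileum and rose in Villin-Cre liver numbered 79 under vehicle and 78 under GW3965, where 18% and 20.1% of the 16322 genes tested in both tissues did. For Rpl12 the ileal difference exceeded the liver one by -1.83 ± 0.12 SE under vehicle and by -2.64 ± 0.12 SE under GW3965 on the log2 scale. Rps4l was the member with a more positive difference in the ileum under GW3965 (1.02 ± 0.20 SE). Levels were also set side by side in floxed vehicle mice, in which 59 members were higher and 4 lower in ileum than in liver, where 43.8% and 28% of all genes were. That split depended on scaling, with 35 higher and 15 lower after rescaling by the median of gene ratios. Rps12, of the small subunit, averaged 258 ± 11.5 CPM in ileum and 143 ± 5.94 CPM in liver (log2 fold change 0.85 ± 0.065 SE, adjusted p = 1.58e-11), and Rps20 averaged 168 ± 9.55 CPM in ileum and 96.3 ± 5.90 CPM in liver (log2 fold change 0.80 ± 0.068 SE, adjusted p = 1.11e-10; SD, n = 3 each). Rps27l was set the other way, at 21.7 ± 0.601 CPM in ileum and 50.3 ± 2.96 CPM in liver (log2 fold change -1.19 ± 0.075 SE, adjusted p = 3.36e-13).

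The paralogs did not all follow their partners. Rps27l, a paralog of Rps27 known in humans as a target of p53, was the 1 member that rose in Villin-Cre ileum under GW3965, where Rps27 fell (log2 fold change -0.85 ± 0.11 SE, adjusted p = 6.04e-06). With GW3965 in floxed liver both fell (-0.44 ± 0.076 SE for Rps27l and -0.83 ± 0.076 SE for Rps27 on the log2 scale; the difference between the 2 genes was not tested). Rpl22l1, the paralog of Rpl22, had 12.7, 13.04 and 13.3 CPM in Villin-Cre vehicle and 6.44, 8.47 and 7.22 CPM in floxed vehicle liver (log2 fold change 0.79 ± 0.15 SE, adjusted p = 4.53e-04), and Rpl22 rose as well (log2 fold change 0.26 ± 0.078 SE, adjusted p = 0.0101). After rescaling by the median of gene ratios the sign for Rpl22 turned, to -0.021. In the ileum both fell in Villin-Cre, Rpl22l1 with -0.85 ± 0.19 SE and Rpl22 with -0.81 ± 0.078 SE under vehicle. Rpl7l1, a relative of Rpl7 that acts in ribosome assembly, fell with GW3965 in floxed ileum (log2 fold change -0.51 ± 0.096 SE, adjusted p = 5.01e-04), and so did Rpl7 (log2 fold change -0.30 ± 0.082 SE, adjusted p = 0.00786; that value was -0.18 without floxed GW3965 replicate 3). Rpl39 and Rpl10, the partners of the testis paralogs Rpl39l and Rpl10l, and Rpl3, the partner of the muscle paralog Rpl3l, fell in both Villin-Cre comparisons of the ileum and rose in both of the liver; after the same rescaling the liver rise of Rpl39 under vehicle was 0.080 and not called.

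**Figure D4:**
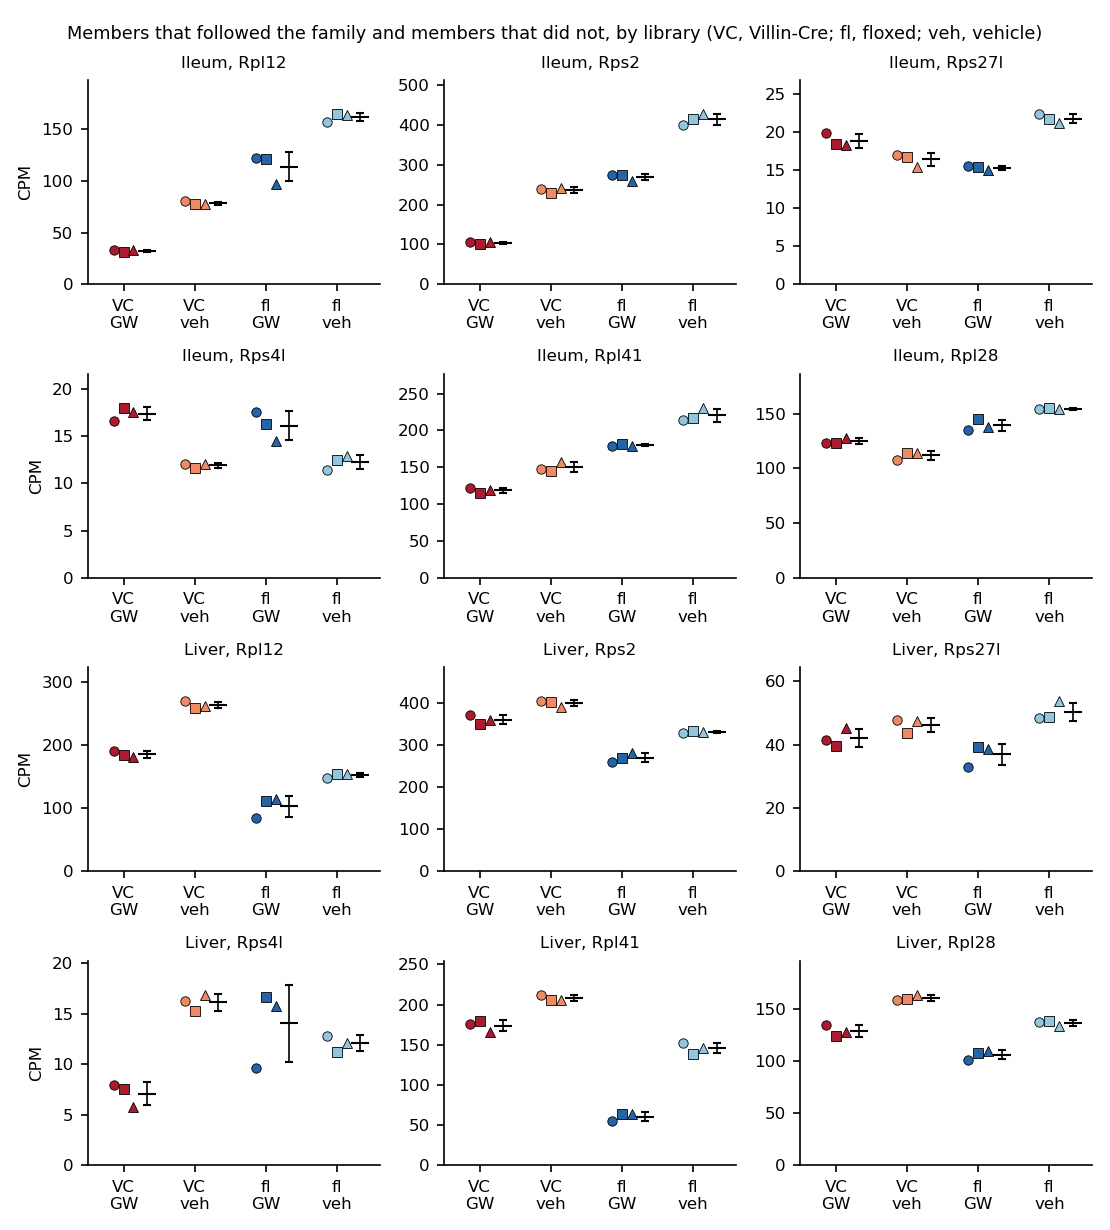
CPM (y axes, from 0) of 6 members in each library by group, ileum in the upper 6 panels and liver in the lower 6; circles, squares and triangles are replicates 1, 2 and 3 and bars the mean ± SD (n = 3). Rpl12, Rps2 and Rpl41 show the ileal falls and liver rises of the family, Rps27l lies between 14.9 and 22.4 CPM in all ileal libraries, and Rps4l is lowest in Villin-Cre GW3965 liver.

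Members that are common reference genes for PCR moved with the rest. Rplp0 had 204, 210.3 and 209.8 CPM in Villin-Cre GW3965, 279, 288 and 308 CPM in Villin-Cre vehicle, 428, 432 and 372 CPM in floxed GW3965 and 560.4, 547 and 578 CPM in floxed vehicle ileum. In the liver it had 408, 408 and 390.4 CPM in Villin-Cre GW3965, 501, 509 and 494 CPM in Villin-Cre vehicle, 216, 235 and 232 CPM in floxed GW3965 and 344, 330.4 and 337 CPM in floxed vehicle. No 2 of these groups overlapped within a tissue. Rpl13a, Rpl19, Rpl32 and Rps18 fell in Villin-Cre ileum under vehicle by 0.76 ± 0.081, 0.71 ± 0.082, 0.84 ± 0.076 and 1.02 ± 0.079 SE on the log2 scale, and rose in Villin-Cre liver by 0.70 ± 0.046, 0.46 ± 0.046, 0.40 ± 0.078 and 0.39 ± 0.046 SE. The other stalk proteins, Rplp1 and Rplp2, fell in Villin-Cre ileum (-0.71 ± 0.061 and -0.69 ± 0.057 SE) and rose in Villin-Cre liver (0.38 ± 0.058 and 0.58 ± 0.056 SE) under vehicle. After rescaling by the median of gene ratios, the liver rises of Rpl32 (0.11), Rps18 (0.099) and Rplp1 (0.090) were no longer called. Over the 12 ileal libraries, 77 of 84 other members correlated with Rplp0 above 0.9 (Pearson, log2 CPM), with Rps4l lowest at -0.45, and over the 12 liver libraries 74 of 84 did, with Rpl24 lowest at -0.058. Outside the family the ileal profiles most like that of Rplp0 were Eef1a1, Sf3b3, Pprc1, Hmga1 and Pabpc1 (r of 0.992 to 0.995), and in the liver Enc1, Tgfbi, Acot2, Ran and Ccn2 (0.993 to 0.995). These are descriptions over libraries that fall into 4 groups.

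Genes that make and serve the ribosome were read from lists chosen for their function, and their counts stand against the shares of all genes that moved the same way: 30.7% and 38.3% lower in Villin-Cre ileum under vehicle and GW3965, and 45.1% and 40.9% higher in Villin-Cre liver. Of 30 ribosome assembly genes, 27 fell in Villin-Cre ileum under vehicle and 27 under GW3965, and 25 fell with GW3965 in either genotype of the ileum, where 31.1% of all genes fell in Villin-Cre and 20.9% in floxed ileum. In Villin-Cre liver 29 rose under vehicle and 30 under GW3965. Their median log2 fold change was -0.81 in Villin-Cre ileum and 0.73 in Villin-Cre liver under vehicle, against -0.18 and 0.26 for all genes. Ncl, the nucleolin gene, fell in Villin-Cre vehicle ileum (log2 fold change -1.03 ± 0.085 SE, adjusted p = 9.22e-08) and rose in Villin-Cre vehicle liver (log2 fold change 1.23 ± 0.049 SE, adjusted p = 1.09e-10). Nop58, a core protein of box C/D small nucleolar ribonucleoproteins, fell in Villin-Cre vehicle ileum (log2 fold change -1.24 ± 0.11 SE, adjusted p = 2.28e-07). With GW3965, 5 of 30 fell in Villin-Cre liver, where 9.03% of all genes fell, and the list median (-0.075) was near that of all genes (-0.081). In floxed liver 17 of 30 fell, where 19.7% of all genes did, with a median of -0.22 against -0.044. Of 23 genes listed as translation factors or TOP mRNAs, 0 higher and 22 lower were called in Villin-Cre vehicle ileum and 20 higher and 0 lower in Villin-Cre vehicle liver, with medians of -0.64 and 0.37. Pabpc1, the cytoplasmic poly(A)-binding protein, fell in the ileum (log2 fold change -0.67 ± 0.046 SE, adjusted p = 1.44e-08) and rose in the liver (log2 fold change 0.83 ± 0.047 SE, adjusted p = 3.13e-09). With GW3965 in Villin-Cre ileum 4 of the 23 rose and 12 fell, where 21.5% and 31.1% of all genes did. In the ileal test of the difference between genotypes, 6 were more positive in Villin-Cre and 1 more negative, where 14.6% and 18.4% of all genes were. The list median there was 0.11, opposite in sign to that of the members.

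Growth regulators as a list were mixed. Of 17, 1 was higher and 7 lower in Villin-Cre vehicle ileum, where 9.61% and 30.7% of all genes were. In Villin-Cre vehicle liver 8 were higher and 0 lower, where 45.1% and 11.7% of all genes were. The 8 higher stand near the share of all genes. The list medians were -0.19 in ileum and 0.15 in liver, against -0.18 and 0.26 for all genes. Within that list Myc, which drives transcription of ribosomal genes, averaged 8.34 ± 0.0701 CPM in Villin-Cre vehicle and 25.8 ± 1.30 CPM in floxed vehicle ileum (log2 fold change -1.57 ± 0.14 SE, adjusted p = 2.18e-07). In the liver Myc averaged 82.7 ± 2.69 CPM in Villin-Cre vehicle and 23.1 ± 0.366 CPM in floxed vehicle mice (log2 fold change 1.82 ± 0.054 SE, adjusted p = 8.97e-12; SD, n = 3 each). Under GW3965 it averaged 3.32 ± 0.426 CPM in Villin-Cre and 18.4 ± 3.70 CPM in floxed ileum, and 71.7 ± 3.33 CPM in Villin-Cre and 12.1 ± 0.148 CPM in floxed liver. Larp1, the TOP-binding protein, averaged 306 ± 4.62 CPM in Villin-Cre vehicle and 329 ± 5.81 CPM in floxed vehicle liver. Of 76 tested genes of the mitochondrial ribosome, 63 fell in Villin-Cre vehicle ileum and 38 in Villin-Cre GW3965 ileum, where 30.7% and 38.3% of all genes fell. In Villin-Cre vehicle liver 22 rose and 6 fell, where 45.1% and 11.7% of all genes did. Their median there was 0.092 against 0.26 for all genes. Of 5 tested snoRNA host genes, 4 fell in Villin-Cre vehicle ileum and 4 rose in Villin-Cre vehicle liver, where 30.7% and 45.1% of all genes did. Their medians were -0.97 and 0.94, against -0.18 and 0.26 for all genes. Ribosomal components that the symbol rule does not take moved alike only in part: Rack1, a scaffold protein of the small subunit, fell in Villin-Cre vehicle ileum (log2 fold change -0.92 ± 0.067 SE, adjusted p = 2.20e-08) and rose in the liver (log2 fold change 0.62 ± 0.042 SE, adjusted p = 1.93e-08). Fau, whose product is cut to release a small-subunit protein, rose with GW3965 in Villin-Cre ileum, at 194 ± 5.25 CPM in Villin-Cre GW3965 and 162 ± 2.11 CPM in Villin-Cre vehicle ileum (log2 fold change 0.26 ± 0.054 SE, adjusted p = 7.10e-04); it averaged 146 ± 3.15 CPM in Villin-Cre vehicle and 119.6 ± 2.31 CPM in floxed vehicle liver.

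**Figure D5:**
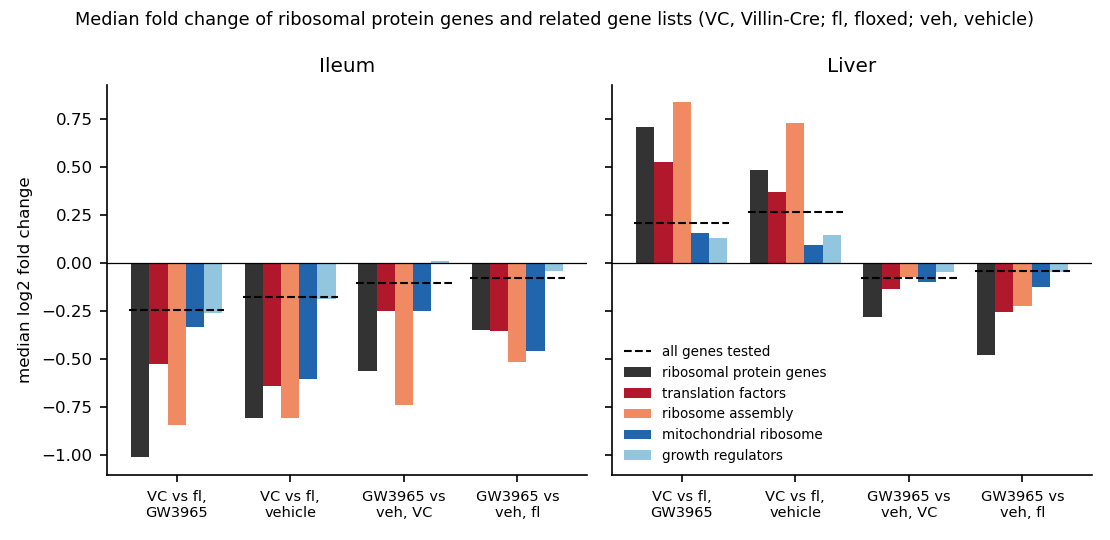
Median log2 fold change (y axis) of the 85 ribosomal protein genes and of 4 related lists in 4 comparisons per tissue (x axis); dashed lines are the medians of all genes tested. Ribosome assembly genes and ribosomal protein genes have the same median in Villin-Cre vehicle ileum (-0.81), and in Villin-Cre vehicle liver the medians are 0.73 for assembly genes and 0.48 for ribosomal protein genes.

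Markers of several cell types moved with the same groups. Of all genes, 30.7% were lower and 9.61% higher in Villin-Cre ileum under vehicle, and 38.3% and 13.6% under GW3965. In Villin-Cre liver 45.1% were higher and 11.7% lower under vehicle, and 40.9% and 15% under GW3965. With GW3965, 31.1% fell in Villin-Cre ileum and 20.9% in floxed ileum. In floxed liver 19.7% fell with GW3965, and in Villin-Cre liver 2.85% rose. The 8 markers of dividing cells summed to 44.8 to 45.9 CPM in Villin-Cre GW3965, 118 to 126 in Villin-Cre vehicle, 147 to 203 in floxed GW3965 and 386 to 429 CPM in floxed vehicle ileum, in the order of the ribosomal protein share, and 8 of 8 fell in Villin-Cre vehicle ileum. Markers of absorptive enterocytes summed to 34624 to 35106 CPM in Villin-Cre GW3965, 16231 to 16692 in Villin-Cre vehicle, 19019 to 20868 in floxed GW3965 and 12686 to 12777 CPM in floxed vehicle ileum, with 6 of 8 higher in Villin-Cre vehicle. Smooth muscle markers summed to 859 to 875 CPM in Villin-Cre GW3965, 6719 to 7079 in Villin-Cre vehicle, 2462 to 3686 in floxed GW3965 and 6370 to 6485 CPM in floxed vehicle ileum. Of these 8 of 8 fell with GW3965 in each genotype and 0 of 8 were called between the genotypes under vehicle. Of 8 Paneth and crypt markers, 7 fell in Villin-Cre ileum under each treatment. In the liver, hepatocyte markers summed to 42456 to 42957 CPM in Villin-Cre vehicle and 65961 to 67989 CPM in floxed vehicle, with 5 of 6 lower. Macrophage markers summed to 1143 to 1162 CPM in Villin-Cre vehicle and 604 to 626 CPM in floxed vehicle, with 8 of 8 higher. Dividing-cell markers summed to 117 to 120.3 CPM in Villin-Cre GW3965, 99.1 to 109 in Villin-Cre vehicle, 54.6 to 96.1 in floxed GW3965 and 143 to 145 CPM in floxed vehicle liver. In Villin-Cre against floxed liver, 2 of 8 were higher and 4 lower under vehicle, and 4 higher and 0 lower under GW3965. The 4 higher under GW3965 stand near the 40.9% of all genes that rose there. With GW3965 in floxed liver 5 of 8 fell, and in Villin-Cre liver 2 of 8 rose. Other lists moved in some of the same comparisons. Of 5 red cell genes, 5 fell in Villin-Cre vehicle ileum (median -1.49) and 4 rose and 1 fell in Villin-Cre vehicle liver (median 1.01). They summed to 7.48 to 8.53 CPM in Villin-Cre vehicle and 24.6 to 28.4 CPM in floxed vehicle ileum, and to 169 to 174 CPM in Villin-Cre vehicle and 101 to 107 CPM in floxed vehicle liver. Of 8 T cell markers, 5 were higher in Villin-Cre vehicle than in floxed vehicle ileum, while 8 of 8 fell in Villin-Cre GW3965 ileum against floxed GW3965 and against Villin-Cre vehicle. They summed to 28.7 to 34.8 CPM in Villin-Cre GW3965, 87.8 to 101 in Villin-Cre vehicle, 57.7 to 70.1 in floxed GW3965 and 46.7 to 50.2 CPM in floxed vehicle ileum. Of 8 B and plasma cell markers, 1 was higher and 5 were lower in Villin-Cre GW3965 against floxed GW3965 ileum, and of 6 goblet cell markers 6 were lower there. Of 7 smooth muscle markers tested in the liver, 5 rose in Villin-Cre under each treatment, with sums of 64.4 to 68.8 CPM in Villin-Cre vehicle and 30.01 to 31.6 CPM in floxed vehicle. Both adipocyte markers tested in the liver rose in Villin-Cre under each treatment. Among the lists named here, Adipoq was at 0 in floxed GW3965 liver and Lep in floxed vehicle liver; no other marker was at 0 in a group of the tissue its list is given for. The part of these cell types in the results on ribosomal protein genes was not tested.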

How the data were processed

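Total RNA of ileum and liver was depleted of ribosomal RNA by RNase H, primed with random hexamers and sequenced as paired reads of 150 bases, per the labels' protocols. STAR 2.5.1a, Subread and featureCounts 1.4.6-p5 with GRCm38 are named in the submitters' processing notes. No source used here names the annotation release, strand setting or log formula. Values deposited by the authors are log2 levels per gene, whose lowest value, -5.62216 in all 24 libraries, is that of 0 reads. Subtracting it on the linear scale gave CPM, and low values came out as whole reads within 0.05. Repeated entries were dropped (276 per tissue). limma 3.58.1 (R 4.3.3), with a trend in the prior variance, was run on log2(CPM + 0.5) with 1 mean for each group, fitted to a tissue's 12 libraries, or all 24 for comparisons across tissues; fold changes on this scale understate changes of low genes. Genes needed 0.5 CPM in 3 libraries, and p-values were adjusted by Benjamini-Hochberg over all genes tested, with a threshold of 0.05. Gene positions, exon lengths and overlaps came from GENCODE on GRCm38. Scripts were tested on simulated data. Alternatives were other scalings, no filter, a pseudocount of 2, the deposited values as they stand, voom on the recovered reads, only the groups compared, a replicate block, close libraries averaged and each library left out. Tables were handled with pandas 2.3.3. Genes were named by these rules: per comparison, up to 3 rises and 3 falls of largest size past the threshold without overlap and with at least 1 CPM in the higher group; paralogs and partners; common PCR reference genes; the 4 highest and 4 lowest per length; and Rps6, Rpsa and the stalk proteins. Members, lists and tests were chosen with earlier results of these data known; the test of the Villin-Cre difference between tissues and the counts at an unadjusted p under 0.05 with close libraries averaged were added after seeing the data.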

Additional observations from a re-analysis of the deposited data

Results flagged for a closer look

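The GW3965 change differed between Villin-Cre and floxed mice by the limma test of the difference itself for the following named members, given as Villin-Cre change minus floxed change on the log2 scale. In the ileum it was more negative in Villin-Cre for Rpl12 (-0.74), Rps19 (-0.73), Rpl13 (-0.72), Rpl3 (-0.51), Rpl13a (-0.45), Rpsa (-0.45), Rps4x (-0.41), Rpl32 (-0.39), Rps6 (-0.37), Rps18 (-0.33), Rplp2 (-0.33), Rpl22 (-0.32) and Rplp1 (-0.28), and more positive for Rpl28 (0.31) and Rps27l (0.69). In the liver it was more positive in Villin-Cre for Rpl13a (0.22), Rpsa (0.22), Rpl7 (0.24), Rplp0 (0.25), Rps4x (0.27), Rpl39 (0.36), Rpl10 (0.38), Rps27 (0.47), Rps6 (0.52), Rps29 (0.61), Rps15a (0.63) and Rpl41 (1.01), and more negative for Rps4l (-1.32). The calls of Rpl22, Rps18 and Rps6 in the ileum and of Rpl13a, Rpl39, Rpl7, Rps4x and Rpsa in the liver were lost on leaving out single libraries, and no member passed with close libraries averaged.

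The Villin-Cre difference itself differed between the tissues. Under vehicle it was more negative in ileum than in liver for 83 of 85 members, where 44.1% of all 20040 genes were. Under GW3965 it was so for 81 members, where 45.4% of all genes were.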

How the results depend on the processing

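Directions of the member medians held in all alternatives run, and sizes moved with scaling. Counts of members in this section are given without the share of all genes called in the same fit. Rescaling by the median of gene ratios changed the counts of members as follows: ileum GW3965 in Villin-Cre 4 higher (median -0.45), Villin-Cre ileum under vehicle median -0.56, under GW3965 2 higher (median -0.74), Villin-Cre liver under vehicle 50 higher and 2 lower (median 0.20), under GW3965 2 lower (median 0.47), GW3965 in Villin-Cre liver 35 lower (median -0.19), ileum against liver 35 higher and 15 lower (median 0.11), and the Villin-Cre difference of ileum minus liver 1 higher under vehicle (median -0.71) and 2 higher under GW3965 (median -1.20). It also reversed 4 named values: Rpl7l1 (-0.041) and Rpl22 (-0.021) in Villin-Cre vehicle liver, Rps27l (-0.047) in Villin-Cre GW3965 liver and Rps18 (-0.18) between ileum and liver; the cause was not tested. With Gm26917 and the mitochondrially encoded genes out of the total, 1 member rose with GW3965 in Villin-Cre ileum (median -0.68), and the median was 0.50 for Villin-Cre against floxed liver under vehicle and 0.48 for ileum against liver. The share became 0.474% in Villin-Cre GW3965, 0.760% in Villin-Cre vehicle, 0.998% in floxed GW3965 and 1.34% in floxed vehicle ileum, and 1.11% in Villin-Cre GW3965, 1.36% in Villin-Cre vehicle, 0.695% in floxed GW3965 and 0.958% in floxed vehicle liver. With only the groups compared, 1 member was lower in Villin-Cre vehicle liver. With close libraries averaged, which leaves 1 residual degree of freedom, 5 members were lower with GW3965 in Villin-Cre ileum, 30 higher in Villin-Cre GW3965 liver, and 0 were called in either direction for GW3965 in floxed ileum, Villin-Cre against floxed ileum under vehicle, GW3965 in either genotype of the liver, Villin-Cre against floxed liver under vehicle, or either difference between genotypes; 57 stayed lower in Villin-Cre GW3965 ileum. Leaving out 1 library at a time gave 1 to 2 members higher with GW3965 in Villin-Cre ileum, medians of -0.84 to -0.78 for Villin-Cre vehicle ileum, 21 to 49 lower for the ileal difference, 26 to 49 higher for the liver difference, 0 to 1 higher with GW3965 in floxed liver, and 1 to 2 lower both for Villin-Cre GW3965 liver and for the liver difference. Same-numbered libraries did not deviate together (correlations of -0.0395 to 0.0545 for ileum and of -0.0256 to 0.0314 for liver), so the numbers were not used as pairs; with the replicate block, 83 members were lower in Villin-Cre vehicle ileum, 81 under GW3965, 74 and 68 with GW3965 in Villin-Cre and floxed ileum, 79 higher in Villin-Cre liver under each treatment, and 61 and 76 lower with GW3965 in Villin-Cre and floxed liver. Of 5368 values of named members over the settings, 5024 kept direction and call, 298 lost the call, 42 gained one and 4 reversed. These sums hide where the losses fell. Fits that left out 1 library gave 3300 of the values, and 92 of those lost the call. With close libraries averaged, 166 of 227 values lost the call. Depth limits the members near 0 reads (Rpl3l, Rpl10l and Rpl39l), which were not tested.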
